A study of Mus musculus with 6 samples.

Results

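Gucy2d, Cnga3, Pde2a and Car2 are 4 genes of the necklace olfactory neurons, a small class of sensory neurons in the main olfactory epithelium whose axons end in a ring of glomeruli, the necklace, at the back of the olfactory bulb. They were taken by symbol from the 53686 genes of the count table by a rule that uses no measured value. Earlier results of these data were known when they were chosen. Poly-A RNA of the dissected tissue was sequenced in 6 libraries, all of strain C57BL/6J: 3 were wild-type and 3 came from hemizygous carriers of 5x21-OR1A1, a transgene for OR1A1, a human odorant receptor. The labels name no treatment, age or animal, no promoter and no founder line. Replicates are thus known only as separate samples, and a p-value reflects the spread among them, which may be technical. The study's title concerns the choice of an odorant receptor and a highly represented receptor transgene, and the comparison made here is between the genotypes.

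Most olfactory neurons signal through cyclic AMP: an odorant receptor activates the G protein subunit Gnal, adenylyl cyclase Adcy3 makes the messenger, and a channel built from Cnga2, Cnga4 and Cngb1 opens. Necklace neurons use cyclic GMP in its place. Their receptor guanylyl cyclase, GC-D, is the product of Gucy2d and responds to the peptides guanylin and uroguanylin and to bicarbonate, which the carbonic anhydrase encoded by Car2 forms from carbon dioxide. Cnga3 encodes the cyclic GMP-gated channel subunit, and Pde2a a phosphodiesterase that cyclic GMP stimulates and that hydrolyses the messenger. Many of these neurons carry Ms4a proteins as chemoreceptors rather than odorant receptors.

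Library totals ran from 27506217 to 35804712 counts, so 1 count was worth 0.0273 to 0.0368 CPM, the count scaled to depth, with library totals over tested genes adjusted by the trimmed mean of M-values (TMM). With edgeR's quasi-likelihood test, 523 of 19267 genes passed a Benjamini-Hochberg adjusted p of 0.05, or 2.71%. Of these, 100 were higher (0.519%) and 423 lower (2.20%) in transgenic tissue, and the median log2 fold change of all genes tested was 0.02. With totals scaled to 12 mature neuron markers the calls were 14732 higher and 255 lower, around a median of 0.71. These markers took 1.98 to 2.60% of counts in wild-type and 1.31 to 1.44% in transgenic libraries. In whole tissue, fewer cells of a type and less RNA per cell cannot be told apart. Leaving out 1 library gave 150 to 626 calls: omitting wild-type library 2 gave 313, and omitting transgenic library 1, 2 or 3 gave 155, 175 or 150. Of the 4 necklace genes, 2 passed the filter on low counts and 0 of these 2 were called, by edgeR, DESeq2 or limma-voom, or at an unadjusted p of 0.05.

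The sequences of 2 of the 4 genes bear directly on what their counts can show, and were taken from the transcripts of GENCODE M21 on GRCm38. Pde2a is printed as an exon that also belongs to another gene, Gm45837, and Cnga3 as the 100 coding bases, the read length, that come closest to Cnga2, the far more abundant channel subunit of other olfactory neurons. The Pde2a exon, whole and coding, is exon 5 of the transcript with the longest coding sequence, at chr7:101494571-101494680 on the plus strand, and lies letter for letter in the Gm45837 transcript. The Cnga3 stretch is in exon 7 at chr1:37261072-37261171 and the Cnga2 stretch in exon 7 at chrX:72008491-72008590, both on the plus strand. Capitals mark the 17 bases at which these 2 stretches differ.
Pde2a, exon shared with Gm45837: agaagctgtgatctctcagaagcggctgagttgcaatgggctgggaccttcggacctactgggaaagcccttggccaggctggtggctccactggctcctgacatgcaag
Cnga3, closest stretch: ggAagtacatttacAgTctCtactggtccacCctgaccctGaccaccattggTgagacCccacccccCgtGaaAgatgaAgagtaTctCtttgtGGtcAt
Cnga2, same stretch: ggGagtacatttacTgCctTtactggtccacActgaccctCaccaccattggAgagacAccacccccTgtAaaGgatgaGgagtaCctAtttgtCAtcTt

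Gucy2d, the receptor cyclase itself, was detected in all 6 libraries at a low level and did not pass the test between genotypes. Its gene (ENSMUSG00000074003.4) spans 98440416 to 98477479 on the plus strand of chromosome 7, with 4102 exonic bases, none of them shared with another gene. Its closest relative among 6 cyclases compared, Gucy2e, differed at 11 or more of any 100 coding bases laid without gaps. Counts were 9, 17 and 28 in wild-type libraries 1, 2 and 3, and 34, 21 and 10 in transgenic libraries 1, 2 and 3. The groups overlapped: wild-type library 3 and transgenic library 1 were the highest, and the lowest of each group, wild-type library 1 and transgenic library 3, lay close together. Wild-type libraries averaged 0.574 ± 0.354 CPM and transgenic ones 0.672 ± 0.282 CPM (SD, n = 3 each). The log2 fold change was 0.26 (SE 0.50, edgeR adjusted p = 0.841), with a 95% interval from -0.90 to 1.42. That interval takes in both a value as low as the median of the cyclic AMP cascade, -0.59, and a rise of more than 2-fold. Counting error alone gave a narrower range: the ratio of summed counts per scaled total was 1.25 (exact 95% interval 0.86 to 1.83), while counts ran from 9 to 28 among wild-type and from 10 to 34 among transgenic libraries. With totals scaled to mature neuron markers the value was 0.97 (SE 0.49, edgeR adjusted p = 0.0903), where the median gene was at 0.71. Without wild-type library 1 or without transgenic library 1 the value was -0.06, and without wild-type library 3 it was 0.84.

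Cnga3, the channel subunit, was close to the limit of detection and too low for the expression filter, so it was not among the genes tested. Its gene (ENSMUSG00000026114.14) spans 37214434 to 37263384 on the plus strand of chromosome 1. It had 1, 3 and 1 counts in wild-type libraries 1, 2 and 3 against 6, 11 and 5 in the transgenic ones. All 3 transgenic libraries lay above all 3 wild-type libraries. Each wild-type library was at or under 3 counts, about the one-sided 95% Poisson upper limit for a count of 0. In CPM the means were 0.0496 ± 0.0284 and 0.242 ± 0.118 (SD, n = 3 each). Summed over libraries, 5 wild-type counts (exact Poisson 95% interval 1.62 to 11.7) stood against 22 transgenic ones (13.8 to 33.3). The ratio per scaled total was 4.58, with an exact 95% interval of 1.69 to 15.5 that covers counting error only and compares these libraries, not the genotypes. Among all 31413 genes with at least 1 count, 8.44% likewise had every transgenic library above every wild-type library. Tested without a filter among these genes, Cnga3 had a log2 fold change of 2.14 (SE 0.72, edgeR unadjusted p = 0.00978, adjusted p = 0.182). It was not called after adjustment, and 2.34% of genes were called in that fit.

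Cnga2, the related subunit, was far more abundant. Per length, Cnga2 stood at 313 ± 61.7 and Cnga3 at 0.0125 ± 0.00719 CPM per kilobase of exon in wild-type tissue (SD, n = 3). In transgenic tissue the same measure was 198 ± 11.7 for Cnga2 and 0.0611 ± 0.0298 for Cnga3. No 100-base stretch of the Cnga3 transcripts occurs in a transcript of another gene, and any 100 coding bases of Cnga3 laid without gaps on 100 of Cnga2 differ at 17 or more, as in the pair printed above. The least distant channel gene was Cnga1, at 13 differences, which had at most 2 counts in a library. The log2 fold change of Cnga2 was -0.66 (SE 0.15, edgeR adjusted p = 0.0728). Whether reads of Cnga2 had a part in the Cnga3 counts was not tested. Markers of dividing progenitors and immature neurons, summed, were higher in every transgenic library, as Cnga3 was. They stood at 371 to 423 against 246 to 267 CPM and at 1710 to 1870 against 1230 to 1500 CPM. Of these, 5 of 9 progenitor and 4 of 9 immature markers were called higher, beside the background of 0.519%, and none was at 0. Their part in the Cnga3 counts was not tested.

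Pde2a had 1, 0 and 0 counts in the wild-type and 0, 0 and 1 in the transgenic libraries, so no level or fold can be given for it. Pde2a (ENSMUSG00000110195.1, chromosome 7, 101421691 to 101512827, plus strand) shares 64.3% of its 6149 exonic bases with Gm45837 on the same strand. In its 4 protein-coding transcripts, 92.3 to 94.9% of the bases lie in Gm45837 exons, and 30 of 31 exons of the transcript with the longest coding sequence are found whole in it. Of 100-base stretches of all Pde2a transcripts, 60.7% occur in Gm45837 as well, and Gm45837 itself was listed at 0 in all 6 libraries. How reads in shared exons were counted is not given in the sources used here. Over the table, 163 of 180 protein-coding genes with at least 95% of their exonic bases shared had at most 2 counts in all libraries together (90.6%). The same held for 15.3% of 17772 genes sharing under 5% and for 8.14% of 3684 genes in between, the class of Pde2a by all its exons. The part of this overlap in the Pde2a counts was not tested, and the counts are given here without a level for its RNA. Pde4a, the cyclic AMP phosphodiesterase of other olfactory neurons, shares no exon and stood at 30.1 ± 3.75 CPM per kilobase in wild-type and 20.5 ± 2.87 in the transgenic group (SD, n = 3 each).

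Car2 was the only abundant gene of the 4 and did not pass the test either. It spans 14886273 to 14900770 on the plus strand of chromosome 3 (ENSMUSG00000027562.12), with 2422 exonic bases, none shared. The wild-type libraries stood at 74.0, 81.0 and 60.2 CPM and the transgenic ones at 74.0, 59.6 and 58.0 CPM. The groups overlapped, since transgenic library 1 lay at the level of wild-type library 1 and wild-type library 3 close to the other transgenic libraries. The means were 71.7 ± 10.5 and 63.9 ± 8.82 CPM (SD, n = 3 each), a log2 fold change of -0.17 (SE 0.13, edgeR adjusted p = 0.588) with a 95% interval from -0.48 to 0.14. With totals scaled to mature neuron markers the value was 0.54 (edgeR adjusted p = 0.0158), below the 0.71 of the median gene under that scaling.

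The level of Car2 was out of scale with that of the receptor cyclase. In wild-type tissue Car2 stood at 29.6 ± 4.35 CPM per kilobase of exon, Gucy2d at 0.140 ± 0.0862 and Cnga3 at 0.0125 ± 0.00719 (SD, n = 3), and the libraries of the 3 genes did not overlap. In transgenic tissue the values were 26.4 ± 3.64, 0.164 ± 0.0688 and 0.0611 ± 0.0298. There the ranges of Gucy2d and Cnga3 overlapped, from 0.0898 to 0.226 and from 0.0413 to 0.0954. Carbonic anhydrase 2 is also known from red blood cells, osteoclasts and glia, and markers of each were present. Summed red cell markers ran from 723 to 1760 CPM in the wild-type and from 453 to 1110 in the transgenic group, osteoclast markers from 130 to 373 and 298 to 362, and ensheathing glia markers from 156 to 187 and 153 to 183, with none of the 18 genes at 0. The 5 oligodendrocyte markers summed to 82.5 to 94.0 CPM in the wild-type and 94.6 to 103 CPM in the transgenic group, with Mog listed at 0 in all 6 libraries. Of the 3 oligodendrocyte markers tested, 1 lay higher and 1 lower in every transgenic than in every wild-type library. Of all genes tested, 11.4% and 12.5% did so. None of these 4 lists had a member called by edgeR or DESeq2 (at an unadjusted p of 0.05, 1 oligodendrocyte marker was higher and 1 lower), and their part in the Car2 level was not tested. Of the genes that mark necklace neurons, Gucy2d was thus present at low counts and Cnga3 at a few counts. The Pde2a counts, 0 or 1 per library, give no level for its RNA, and Car2 is known from other cells as well.

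**Figure D1:**
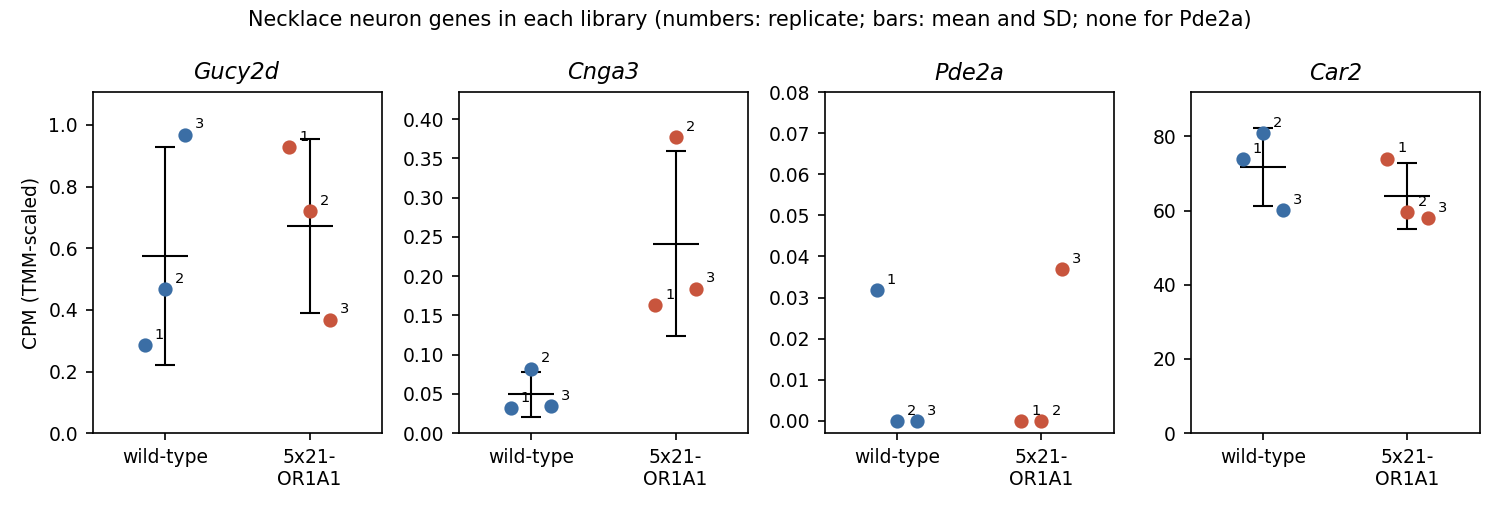
Each panel shows 1 gene in CPM on a linear axis, with a point per library numbered by replicate and bars for the mean and SD (n = 3), left out for Pde2a. Gucy2d and Car2 overlap between the groups, the 3 transgenic values of Cnga3 lie above the 3 wild-type ones, and Pde2a is at 0 or 1 count throughout.

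The cyclic AMP cascade gives the setting for these values. All 10 of its genes lay lower in every transgenic than in every wild-type library, against 12.5% of all genes tested, and the median log2 fold change of the list was -0.59. Of the 10, Gng13, a G protein gamma subunit (-0.81, SE 0.15, edgeR adjusted p = 0.0292), and Cnga4 (-0.68, SE 0.14, edgeR adjusted p = 0.0469) fell, which is 2 genes beside the background of 2.20%. Adcy3 (-0.60, 95% interval -0.99 to -0.21), Cngb1 (-0.58), Gnal (-0.52), Gnb1 (-0.36), Pde1c (-0.57) and Pde4a (-0.55) did not pass edgeR's adjusted threshold. DESeq2 called all 10 genes of the cascade lower, where it called 6.31% of all genes in either direction. Both edgeR calls, Gng13 and Cnga4, were lost without any 1 of the libraries other than wild-type library 1. With totals scaled to the 12 mature neuron markers, 6 of which are genes of this cascade, Cnga4 was 0.03, Gng13 -0.09, Cnga2 0.07 and Adcy3 0.11. The 95% intervals of Gucy2d and Car2, unlike those of these genes and of Omp (-0.76, SE 0.14, edgeR adjusted p = 0.0305), took in 0. An interval that takes in 0 in 1 gene and not in another is no test of their difference.

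**Figure D2:**
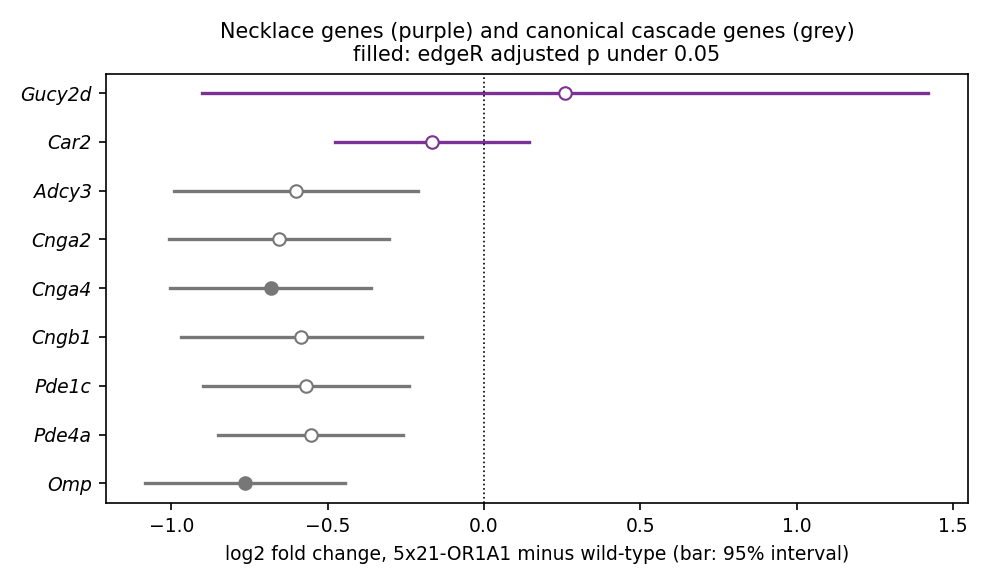
Points are log2 fold changes of transgenic minus wild-type tissue and bars their 95% intervals before adjustment, for 2 necklace genes (purple) and 7 genes of other olfactory neurons (grey), filled where the edgeR adjusted p was under 0.05. Gucy2d, at 0.26, has an interval from -0.90 to 1.42, and the grey genes lie between -0.76 and -0.55 (Cnga4, Cnga2, Cngb1, Adcy3, Pde1c and Pde4a are above 0 when totals are scaled to mature neuron markers).

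Counts within 1 library were also compared with each other, which needs no scaling between libraries. All 3 denominators, Adcy3, Cnga2 and Omp, were lower in every transgenic library, so the ratio of an ordinary gene to them was higher there: the median difference over all tested genes was 0.61 for ratios to Adcy3, 0.66 to Cnga2 and 0.78 to Omp (log2). Of 7 ratios planned, 5 could be formed, since Pde2a had no usable count, and each was tested by a two-sided exact permutation test whose smallest p with 3 against 3 libraries is 0.1. The log2 ratio of Cnga3 to Cnga2 counts was -13.99, -13.56 and -14.18 in the wild-type libraries, against -11.76, -10.68 and -11.47 where the transgene was present. The means differed by 2.60 (SE 0.37, exact permutation p = 0.1, adjusted over the 5 ratios 0.167). The groups did not overlap, which held for the ratio to Cnga2 of 54.3% of genes with at least 1 count, around a median difference of 0.68. With Omp, the marker of mature olfactory neurons, as the denominator the Cnga3 ratio differed by 2.72 (SE 0.42, exact permutation p = 0.1, adjusted 0.167), again without overlap, as for 61.8% of genes with at least 1 count, whose median was 0.80.

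The Gucy2d ratios overlapped between the groups. Relative to Adcy3, the cyclase of the other pathway, Gucy2d stood on the log2 scale at -10.95, -10.80 and -9.23 in the wild-type group, against -8.90, -9.42 and -10.00 in the transgenic group, a difference of 0.89 (SE 0.64, exact permutation p = 0.3, adjusted 0.3). Of the exonic bases of Adcy3, 22.1% are shared with Cenpo on the opposite strand, which unstranded reads cannot tell apart. Relative to Omp the Gucy2d difference was 1.06 (SE 0.56, exact permutation p = 0.2, adjusted 0.25). Car2 relative to Omp ran from -7.68 to -7.03 in wild-type and from -6.88 to -6.50 in transgenic libraries, a difference of 0.59 (SE 0.22, exact permutation p = 0.1, adjusted 0.167). That is below the median of 0.78 for all tested genes, of which 81.3% likewise had every transgenic ratio to Omp above every wild-type one, and nothing about Car2 is read from it. The 5 ratios share Omp or member counts and are not separate observations.

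**Figure D3:**
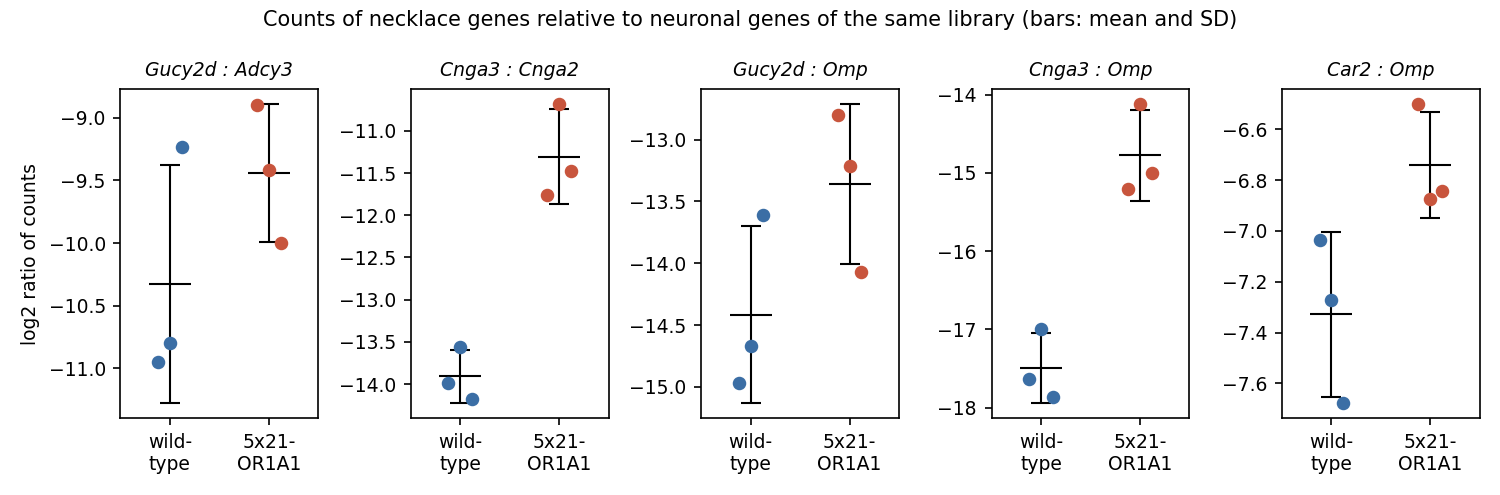
Each panel shows the log2 ratio of the counts of a necklace gene to those of a neuronal gene, 1 point per library with the mean and SD (n = 3); the axes do not start at 0. The groups overlap for both Gucy2d ratios and not for Cnga3 to Cnga2, Cnga3 to Omp and Car2 to Omp, where 54.3%, 61.8% and 81.3% of the genes compared also lie higher without overlap.

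Beyond the members, edgeR called 3 genes of the cyclic GMP and cyclic AMP lists, all lower in transgenic tissue, and 0 other carbonic anhydrases or Ms4a genes. Over 84 further genes of 9 lists, 56 were tested and edgeR called 0 higher and 3 lower (Pde6d, Cnga4 and Gng13), with a median log2 fold change of 0.07 beside 0.02 for all genes. These 3 are 5.36% of the 56, beside 2.71% of all genes. At an unadjusted p of 0.05, 7 were higher and 11 lower, 10 of the 11 being the cyclic AMP cascade. The share of all genes at that unadjusted threshold was not counted. Numbers passing it, here and for the other lists, thus have no background and are given as description only. DESeq2 called 13 of the 56 (23.2%, beside 6.31% of all genes), 2 higher and 11 lower, limma-voom called 3, and the edgeR number was 0 in 5 of the 6 fits that leave out a library and 7 without wild-type library 1. Of the 3 calls, Cnga4 and Gng13 belong to the cyclic AMP cascade.

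Among the activating ligands, guanylin (Guca2a) had at most 2 counts in a library and uroguanylin (Guca2b) at most 1, and the natriuretic peptide genes Nppa and Nppb at most 1. Of the exonic bases of Nppa, 61.5% are shared with Gm13054 on the opposite strand, so its count is uncertain. The log2 fold change was -0.69 for Nppc, the C-type natriuretic peptide (edgeR adjusted p = 0.303), and -0.10 for Npr3, the clearance receptor of these peptides (edgeR adjusted p = 0.785). Of 10 other guanylyl cyclases 7 were tested, 0 were called by edgeR, DESeq2 or at an unadjusted p of 0.05, and the median was 0.105. The natriuretic peptide receptors Npr2 and Npr1 stood at 2.68 ± 0.459 and 1.29 ± 0.319 CPM per kilobase in wild-type tissue (SD, n = 3), and Gucy2c, the guanylin receptor of the intestine, at 0.687 to 1.35. Every wild-type library of these 3 genes was above every one of Gucy2d, at 0.0697 to 0.236. Their log2 fold changes were -0.01, 0.11 and 0.20, and that of Gucy1a3, a subunit of the nitric oxide receptor, 0.19, with edgeR adjusted p from 0.774 to 0.979. Of 5 calcium sensors that bind guanylyl cyclases or related targets, 4 were tested and 0 called by edgeR. DESeq2 called 1, Ncald, higher, beside 6.31% of all genes called in either direction. Ncald also passed at an unadjusted edgeR p of 0.05. Ncald, neurocalcin delta, lay higher in every transgenic library, at 46.5 to 50.7 against 35.3 to 42.7 CPM (0.34, SE 0.09, edgeR adjusted p = 0.107), as did 11.4% of all genes tested. Guca1a, Guca1b and Hpca were each under 2 CPM in all libraries, with values of 0.56, -0.27 and 0.07.

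On the side of breakdown, edgeR called 1 of 10 tested phosphodiesterases other than Pde2a, Pde6d, beside 2.71% of all genes. DESeq2 called 3, beside 6.31% of all genes, with Pde6d and Pde1c lower and Pde3b higher (DESeq2 adjusted p = 0.0481). Pde1b and Pde3b were higher at an unadjusted edgeR p of 0.05. Pde6d encodes a lipid-binding protein that carries prenylated proteins to cilia and is named for its place beside the photoreceptor phosphodiesterase. It fell from 188, 225 and 204 CPM in the wild-type libraries to 152, 152 and 144 CPM in the transgenic ones (log2 fold change -0.46, SE 0.09, edgeR adjusted p = 0.0342). All 3 transgenic libraries lay below the wild-type ones, as for 12.5% of all genes tested. The edgeR adjusted p ran from 0.0710 to 0.182 in 5 of the 6 fits without 1 library, all except that without wild-type library 1. With the replicate number as a block the edgeR adjusted p was 0.0629. With totals scaled to neuron markers the Pde6d value was 0.245, below the median gene. Pde5a, specific for cyclic GMP, had a value of 0.27 and ran from 12.4 to 38.3 CPM among wild-type libraries alone, and Pde9a, also specific for it, had a value of -0.15. Downstream, the cyclic GMP-dependent kinases Prkg1 (0.88, edgeR adjusted p = 0.222) and Prkg2 (0.80, edgeR adjusted p = 0.387) and the kinase substrate Mrvi1 (0.17) were not called by edgeR. DESeq2 did not call Prkg1 or Mrvi1 and gave no adjusted p for Prkg2. Both kinases were under 2 CPM. Prkg1 passed at an unadjusted p of 0.05.

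Of 15 other carbonic anhydrases 13 were tested and 0 called by edgeR or DESeq2 (1, Car12, was higher at an unadjusted p of 0.05), with a median of 0.14 and a range from -0.18 to 0.51. Car6, the secreted enzyme of saliva and nasal glands, was the most abundant, at 125 to 367 CPM against 199 to 501 CPM in the transgenic group (0.49, SE 0.42, edgeR adjusted p = 0.614). The membrane-bound enzymes Car12 and Car4 had values of 0.33 and -0.12, and Car8, an inactive relative, of 0.12.

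The Ms4a family, chemoreceptors in necklace neurons and surface proteins in immune cells, had 19 genes in the table, 8 of them tested and 0 called by edgeR or DESeq2. At an unadjusted p of 0.05, 2 were higher, Ms4a6c and the B cell gene Ms4a1. The median was 0.23, from -0.86 to 1.05. Ms4a12 and Ms4a13 were listed at 0 in all 6 libraries. Ms4a7, the most abundant, ran from 3.62 to 6.19 CPM in wild-type libraries and 4.42 to 7.40 CPM in the transgenic group (0.11, edgeR adjusted p = 0.869), and Ms4a6b, Ms4a6d and Ms4a6c had values of -0.12, 0.25 and 0.66. Macrophages and B cells express several of these genes. Macrophage markers summed to 68.5 to 112 CPM in the wild-type and 94.2 to 113 CPM in the transgenic group, B cell markers from 2.33 to 5.02 and 4.25 to 6.38, with none at 0, and their part in the Ms4a levels was not tested. Wild-type library 2 held the lowest sum of both lists.

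**Figure D4:**
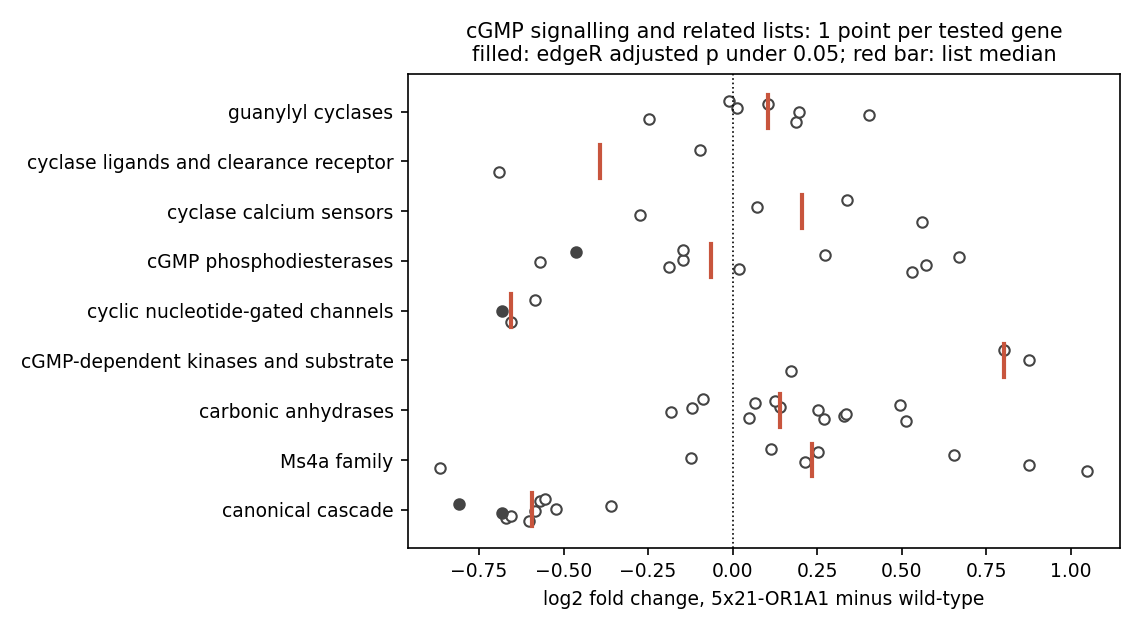
Each point is the log2 fold change of 1 tested gene, filled where the edgeR adjusted p was under 0.05, and red bars are list medians. The cyclic AMP cascade, with a median of -0.59, and the channel list, at -0.66, lie to the left of 0, and the carbonic anhydrases, at 0.14, and Ms4a genes, at 0.23, spread around it.

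The genes whose pattern over the 6 libraries was most like that of each member were found by the root mean square difference of log2 CPM, each gene centred on its mean, among 16765 or 16766 genes with a mean of at least 1 CPM. For Car2 these were Gm13416 (0.016), Dusp10 (0.0294) and Star (0.0598), where the median gene differed by 0.247. Nearest to Gucy2d were the odorant receptors Olfr1412 (0.166), Olfr711 (0.179) and Olfr533 (0.187), against a median of 0.615. Nearest to Cnga3 were Knl1, a kinetochore gene (0.243), Olfr206 (0.291) and Olfr420 (0.294), against a median of 0.800. The 3 smallest of that many differences lie below the median by selection, so no relation between the genes is read from them. The patterns of Gucy2d and Cnga3 rest on 1 to 34 counts per library. Odorant receptor genes include near-identical copies between which reads can be split, so their own counts are uncertain.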

How the data were processed

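The authors deposited raw read counts per gene symbol, which were used unchanged. Per the labels' protocols, nonstranded poly-A TruSeq libraries were read as single-end reads of 100 bases on an Illumina sequencer. The submitters' processing notes list TopHat2 2.1.1, HTSeq 0.9.1 and the build GRCm38.p5. The sources used here do not give the release of the gene annotation or the counting options. Columns were matched to samples by their names. Places, exon lengths and sequences came from GENCODE M21 (GRCm38), in which 49627 of 53686 symbols were found once.

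The test between genotypes was edgeR's quasi-likelihood test (edgeR 4.0.16, R 4.3.3) with TMM scaling, the filterByExpr defaults (count 10, total 15) and Benjamini-Hochberg adjustment over 19267 genes. A standard error is the log2 fold change over the square root of F. The members and lists were chosen with earlier results of these data known. Named genes were the members, called genes of each pathway list filled up with its most abundant to at most 4, and the 3 nearest patterns per member; Adcy3, Pde4a, Omp, Cnga1, Mog, Ms4a1, Pde1b, Pde3b, the low ligand genes and the 2 Ms4a genes at 0 were named besides, after their values were seen. Nearest patterns used log2 CPM with a prior count of 2, and 0.5 was added to counts in ratios. Alternatives were other scalings, filters, DESeq2 1.42.0, limma-voom 3.58.1, the replicate block and leaving out each library. The edgeR script was tested on simulated data.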

Additional observations from a re-analysis of the deposited data

How the results depend on the processing

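Alternatives for the pathway counts and for single genes other than the members were chosen after seeing the data. The calls over all genes, 523, were 14987 with totals scaled to mature neuron markers and 1215 with DESeq2, and ranged from 150 to 626 when 1 library was left out. The pathway genes called, 3, were 1 with library totals alone, 34 with marker scaling (all higher), 7 without a filter and 13 with DESeq2, and ranged from 0 to 7 without 1 library. Gucy2d, 0.26, was 0.974 with marker scaling (edgeR adjusted p = 0.0903), ranged from -0.0587 to 0.836 without 1 library, and was -0.0569 without wild-type library 1. Car2, -0.17, was 0.538 with marker scaling and ranged from -0.288 to -0.0639 without 1 library. Cnga3 was 2.29 as a log2 ratio of mean CPM, 3.02 with marker scaling and 1.81 to 2.87 without 1 library. Differences of ratios ranged without 1 library from 0.578 to 1.44 (Gucy2d to Adcy3), 2.29 to 2.83 (Cnga3 to Cnga2), 0.775 to 1.46 (Gucy2d to Omp), 2.39 to 2.97 (Cnga3 to Omp) and 0.414 to 0.736 (Car2 to Omp). Marker scaling, which moves the median gene to 0.714, turned Npr2 to 0.666, Npr3 to 0.601, Nppc to 0.0469, Guca1b to 0.412, Pde6d to 0.245, Pde1c to 0.151, Pde9a to 0.550, Cnga4 to 0.0338, Cnga2 to 0.0655, Cngb1 to 0.135, Car4 to 0.581, Ms4a6b to 0.558, Gnb1 to 0.355, Gnal to 0.186, Adcy3 to 0.113 and Pde4a to 0.150. With limma-voom Npr2 was 0.00295 and Hpca -0.048. Without 1 library, genes not called by edgeR ranged across 0: Npr2 from -0.104 to 0.131, Npr1 from -0.0191 to 0.320, Gucy2c from -0.0491 to 0.372, Hpca from -0.641 to 0.431, Pde5a from -0.0642 to 0.629, Mrvi1 from -0.0425 to 0.397, Car4 from -0.312 to 0.0778, Ms4a7 from -0.104 to 0.279 and Ms4a6b from -0.304 to 0.0312. Marker scaling by its construction raises all genes; for the other shifts the cause was not tested. No Pde2a value could be formed under any setting, and Gucy2d and Cnga3 did not pass the filter of 1 CPM in 3 libraries. Deviations of same-numbered libraries from their group means correlated at -0.428, -0.00713 and -0.302. Within a group of 3 libraries these deviations are tied to each other, so the values do not settle whether the numbers mark pairs. With the replicate block 377 genes were called, Gucy2d was 0.316, Car2 -0.165 and Hpca -0.0159. Cnga3 had 27 counts over all libraries and Gucy2d 119; for Gucy2d the counting interval, 0.86 to 1.83 as a ratio, was narrower than that of the fit.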
